A study of Mus musculus with 141 samples.

Results

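Imprinted genes were examined in subcutaneous adipose tissue from the HMDP, a panel of inbred and recombinant inbred mouse strains. The members are 38 genes listed by symbol as imprinted in the mouse, and they were looked up in the deposited tables of 36558 genes through Ensembl gene IDs. Of the 38 genes, 31 have a row. The other 7, the noncoding RNAs *H19*, *Meg3*, *Rian*, *Mirg*, *Airn*, *Kcnq1ot1* and *Peg13*, are not analysed here. Of the 31 genes, 27 passed the filter on low counts and were tested, whereas *Rtl1*, *Magel2*, *Zdbf2* and *Phlda2* were too low for a test.

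RNA was sequenced from 67 females and 74 males of 82 strains, with 1 library per strain and sex, so that 59 strains have both sexes, 8 have a female only and 15 a male only. All mice were kept on chow until 8 weeks of age, were then fed a diet rich in fat and sucrose (HF/HS) for 8 weeks, and fasted 4 h at the end, so no library represents a chow-fed mouse. The strains comprise the BXD family (32 females and 34 males), classical inbred strains (21 and 23), AXB/BXA (9 and 11), CXB (3 and 3) and BXH (2 and 3). BXD strains descend from C57BL/6J and DBA/2J, AXB/BXA strains from A/J and C57BL/6J, CXB strains from BALB/cJ and C57BL/6J, and BXH strains from C57BL/6J and C3H/HeJ. The labels also name alleles in BXD24/TyJ-Cep290<rd16>/J, counted here as a BXD strain, and in BTBR T<+> tf/J, counted as a classical inbred strain. The study's methods give 1 to 4 samples for each sex of a strain, whereas the deposited data hold 1 library for each. How these relate is not stated. The study counts its matched samples as males and females and no pooling of mice is mentioned in the sources used here. The p-values between the sexes measure the spread of the sex difference between strains.

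An imprinted gene is transcribed mainly from either the maternal or the paternal copy, because DNA methylation laid down in the egg or the sperm marks the copies differently. Imprinted genes lie in clusters that share a control region, and many of them regulate fetal growth, placental function and, after birth, the size and metabolism of fat depots. Several, such as *Dlk1*, *Mest*, *Peg3* and *Grb10*, have been studied in adipocytes and their precursors. In an inbred mouse both parental copies are identical, so these data give the level of each gene and not which copy produced it.

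The sequences below are the promoter windows of the members on which the results on strain, sex and co-expression turn. CpG dinucleotides are marked because their methylation differs between the parental copies at the control regions. A control region need not lie in the window shown. Each window holds 300 bases, from 250 before to 50 after a transcript start in RefSeq (GRCm38.p6), is read 5′ to 3′ on the strand of the gene, and has every CpG in capitals. *Peg3* (chr7:6730370-6730669, minus strand, 13 CpGs) and *Usp29* (chr7:6730333-6730632, plus strand, 17 CpGs) start in opposite directions, and 263 bases of their windows are the same DNA read on opposite strands. *Zim1* lies at chr7:6696383-6696682 on the minus strand with 20 CpGs, *Plagl1* at chr10:13090582-13090881 on the plus strand with 26, *Rasgrf1* at chr9:89909525-89909824 on the plus strand with 26, and *Dlk1* at chr12:109452573-109452872 on the plus strand with 9.
Peg3: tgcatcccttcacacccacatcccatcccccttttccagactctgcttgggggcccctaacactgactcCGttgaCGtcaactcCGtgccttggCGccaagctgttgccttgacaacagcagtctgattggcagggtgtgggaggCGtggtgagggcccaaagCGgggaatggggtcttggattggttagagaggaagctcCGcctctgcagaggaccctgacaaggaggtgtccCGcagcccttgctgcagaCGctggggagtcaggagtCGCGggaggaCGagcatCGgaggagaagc
Usp29: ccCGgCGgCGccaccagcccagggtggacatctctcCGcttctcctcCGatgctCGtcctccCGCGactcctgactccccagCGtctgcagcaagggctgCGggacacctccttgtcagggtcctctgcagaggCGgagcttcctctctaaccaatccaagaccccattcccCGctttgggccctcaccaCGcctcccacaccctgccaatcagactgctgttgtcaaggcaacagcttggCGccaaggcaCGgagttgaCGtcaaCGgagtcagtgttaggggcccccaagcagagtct
Zim1: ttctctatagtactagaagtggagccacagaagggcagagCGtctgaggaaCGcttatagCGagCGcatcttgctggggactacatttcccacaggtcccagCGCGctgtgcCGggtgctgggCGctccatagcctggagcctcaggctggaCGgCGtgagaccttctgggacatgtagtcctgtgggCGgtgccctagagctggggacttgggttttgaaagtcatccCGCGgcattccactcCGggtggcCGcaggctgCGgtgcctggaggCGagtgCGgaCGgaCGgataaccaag
Plagl1: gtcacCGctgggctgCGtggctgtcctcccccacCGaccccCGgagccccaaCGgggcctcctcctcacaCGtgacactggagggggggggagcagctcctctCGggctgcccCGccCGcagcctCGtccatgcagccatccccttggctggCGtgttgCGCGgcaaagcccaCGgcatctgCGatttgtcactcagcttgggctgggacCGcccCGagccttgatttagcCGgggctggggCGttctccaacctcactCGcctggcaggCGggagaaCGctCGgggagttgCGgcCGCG
Rasgrf1: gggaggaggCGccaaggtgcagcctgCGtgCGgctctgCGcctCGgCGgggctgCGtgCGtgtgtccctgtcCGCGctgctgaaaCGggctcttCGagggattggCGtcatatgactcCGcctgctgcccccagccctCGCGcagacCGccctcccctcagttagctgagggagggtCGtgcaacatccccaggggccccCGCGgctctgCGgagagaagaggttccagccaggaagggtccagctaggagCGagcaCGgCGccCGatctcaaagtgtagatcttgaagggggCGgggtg
Dlk1: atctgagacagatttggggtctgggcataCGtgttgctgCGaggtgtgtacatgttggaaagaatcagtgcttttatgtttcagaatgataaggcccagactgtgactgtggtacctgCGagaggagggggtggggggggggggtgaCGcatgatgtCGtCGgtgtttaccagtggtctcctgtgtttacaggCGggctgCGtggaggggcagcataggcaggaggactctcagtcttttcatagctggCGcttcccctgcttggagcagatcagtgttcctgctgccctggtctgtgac

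Promoter windows were found for 25 members, and the 41 windows of these genes held a median of 13 CpGs (the letters CG, counted on 1 strand, which gives the same number on the other) against 7 in all 32851 windows. The window of *Dlk1* was poorer in CpGs than the other 5 shown. In the Ensembl gene annotation the starts of *Peg10* and *Sgce*, a further pair read in opposite directions, are 99 bases apart. Methylation was not measured in these mice, and whether a window lies in a control region was not examined. No link between a window and the level of its gene was tested.

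Library depth ranged from 6269154 to 78562648 estimated counts, with a median of 30233245. Several features of the libraries bear on the genes below. Y-linked transcripts went against the sex label in 3 libraries, those labelled NZW/LacJ male, BXD34/TyJ female and BXD69/RwwJ female, of which NZW/LacJ belongs to a strain with both sexes. The median correlation with the other libraries was under 0.83 in the libraries labelled BXD34/TyJ female (0.685), AXB12/PgnJ female (0.764) and BXD38/TyJ female (0.824). Adipocyte markers were abundant in both sexes, with summed levels in TMM-scaled counts per 1000000 (CPM) of 3796 to 39701 CPM in females and 8445 to 46211 CPM in males, and 7 of the 8 were lower in females. The lowest male sum was that of the library labelled NZW/LacJ male, and the next was 15733 CPM. Mammary epithelial markers summed to a median of 486 CPM in females (0.886 to 2180) and of 2.55 CPM in males (0.286 to 482), and 9 of 9 were higher in females. Without the 3 libraries against their label, the females started at 80.3 CPM and the males ended at 330 CPM. Skeletal muscle markers summed to a median of 19.9 CPM in females and 22.9 CPM in males, but single libraries of both sexes were far higher. The highest sums were those of the BXD79/RwwJ female (22338 CPM), the males of BXH8/TyJ (3121 CPM), BXA7/PgnJ (2878 CPM), BXD11/TyJ (1442 CPM) and BXD51/RwwJ (805 CPM), and the I/LnJ female (620 CPM). Macrophage and endothelial markers were lower in females for 7 of 7 and 6 of 6 genes. Lymphoid markers summed to a median of 41.8 CPM in females (4.99 to 1385) and of 18.4 CPM in males (3.87 to 1039). Without the 3 libraries against their label the medians were 128.6 and 18.1 CPM. The lymphoid markers passed the test between the sexes for 0 of 8 genes. In bulk tissue fewer cells of a type and less RNA per cell cannot be told apart.

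Per length, that is in transcripts per 1000000 (TPM), the members spanned a wide range of expression. *Gnas*, which encodes the stimulatory G protein subunit that couples adrenergic receptors to cAMP, stood highest at a median of 996 TPM over the libraries. It was followed by *Sgce*, a sarcoglycan of the cell membrane, at 59.4 TPM, *Impact*, an inhibitor of the stress kinase GCN2, at 39.4 TPM, and the zinc finger gene *Peg3* at 32.4 TPM. The ranges of *Impact* and *Peg3* overlapped widely, so the order between them does not hold in each library.

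In all, 14 members had a median over 10 TPM, 6 lay between 1 and 10 TPM and 11 were under 1 TPM. The fetal growth factor *Igf2* remained detectable at 5.63 TPM (1.13 to 17.01) and its clearance receptor *Igf2r* stood at 17.6 TPM. *Dlk1*, the preadipocyte factor that restrains adipocyte differentiation, was at 0.368 TPM. The lowest members were *Phlda2* (0.0825 TPM), *Zdbf2* (0.0295 TPM), *Magel2* (0.0141 TPM) and *Rtl1* (0.00689 TPM), and *Magel2* and *Rtl1* had more than 3 counts in 34 and 6 libraries. At the median depth 3 counts correspond to 0.0992 CPM, and lower levels of these genes were not detectable.

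The spread across libraries varied from gene to gene. From the 5th to the 95th percentile of libraries, *Copg2*, a COPI coat subunit, ranged 1.65-fold in CPM, *Gnas* 1.73-fold, the phosphoinositide phosphatase gene *Inpp5f* 1.87-fold, *Igf2r* 1.94-fold and *Impact* 1.97-fold. At the other end, the range was 8.59-fold for *Peg3*, 9.05-fold for the zinc finger transcription factor gene *Plagl1*, 10.5-fold for the amino acid transporter gene *Slc38a4*, 13.6-fold for *Zim1*, 17.8-fold for the retrotransposon-derived *Peg10* and 52.7-fold for *Rasgrf1*, an activator of Ras. These ranges pool the sexes, and within females and males *Rasgrf1* ranged 12.8-fold and 6.33-fold and *Peg10* 23.6-fold and 15.5-fold. The 5th percentile of *Dlk1* lay under the floor of 3 counts at the median depth, so its range is a lower bound, at least 12.5-fold. In all, 9 members varied less than 3-fold between those percentiles.

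**Figure D1:**
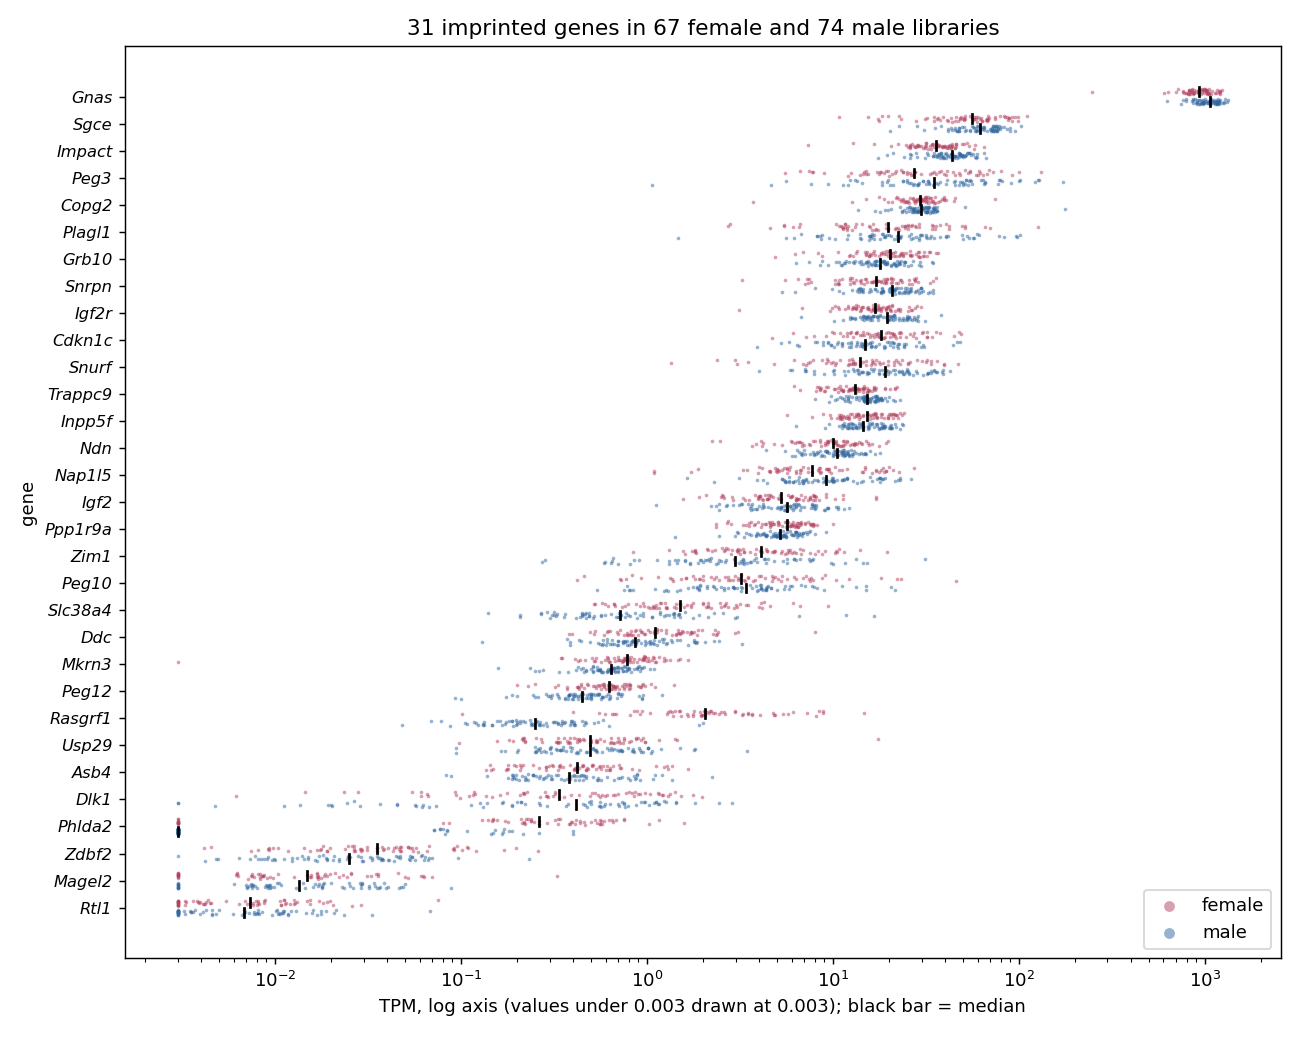
Level of the 31 imprinted genes with a row, in TPM on a log axis, for each female and male library, with a bar at the median of each sex. *Gnas* stands at a median of 996 TPM and *Rtl1* at 0.00689 TPM.

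One library held the extreme value of many of these genes. The library labelled BXD34/TyJ female, which is the shallowest, held the highest value of all libraries for *Usp29* (204 CPM against 6.95 in the next), *Inpp5f* (185 against 45.6), *Ddc* (30.2 against 3.27), *Peg12* (13.3 against 2.06), *Asb4* (8.48 against 4.39), *Magel2* (5.37 against 0.363), *Zdbf2* and *Rtl1*. It held the lowest value for *Igf2r*, *Mkrn3* and *Copg2*. In TPM, which TMM scaling does not touch, it remained the highest for *Usp29* (17.4 TPM against 3.48 in the next), *Ddc*, *Peg12*, *Magel2* and *Rtl1*. It ranked 26 from the highest for *Inpp5f*, 19 for *Asb4* and 35 for *Zdbf2*. In TPM it remained the lowest for *Igf2r*, *Mkrn3* and *Copg2*. It was then also the lowest for *Gnas* (248 TPM against 607 in the next), *Impact* (7.38 against 12.8), *Sgce* (10.8 against 15.4), *Grb10* (4.86 against 6.29) and *Ndn* (2.24 against 2.46). The strain has no male library, so this library entered no comparison of the sexes, and its effect on the comparisons of families and pairs is given beside them.

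The sexes were compared within the 59 strains that have both. Of 27 members tested, 10 were lower in females (37%) and 6 were higher (22.2%) by the quasi-likelihood test of edgeR, with Benjamini-Hochberg adjustment over all genes. Among all 16765 genes tested, 29.8% were lower and 28.4% were higher, so the members' shares lay near those of the genes at large. The median log2FC (female minus male) was −0.11 over the members and 0.01 over all genes. Scaling by library totals in place of TMM moved the median of all genes to 0.12 and the split of members to 7 lower (25.9%) and 10 higher (37%), against 16.5% and 44.2% of all genes. Adding adipocyte and skeletal muscle marker scores to the model left 3 members lower, *Igf2r*, *Impact* and *Inpp5f* (11.1%), and brought 15 higher (55.6%), against 24.6% lower and 24.6% higher of all genes in that fit. Of the members called lower, *Gnas*, *Plagl1*, *Snrpn*, *Snurf*, *Copg2* and *Sgce* turned sign in that fit, and *Plagl1* (0.31), *Snrpn* (0.20) and *Sgce* (0.25) passed as higher. The markers moved with the sexes as given above, and their part in the sex difference of single members was not tested beyond that fit.

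Among growth factors and receptors, *Igf2r* was the member called. This receptor takes IGF2 from the extracellular space to the lysosome. Its level was 27.98 to 156 CPM in females, with a median of 102.7, where the lowest value is that of the library labelled BXD34/TyJ female and the next lowest is 74.5 CPM, and 82.1 to 203 CPM in males, with a median of 122.8. *Igf2r* was lower in females in 49 of 59 strains (log2FC −0.23 ± 0.04, SE; adjusted p = 6.9e-07 by edgeR), and the ranges of the sexes overlapped. Its ligand *Igf2* had a log2FC of −0.18 ± 0.10 (adjusted p = 0.12) and *Dlk1* of −0.14 ± 0.15 (adjusted p = 0.44), and neither passed the test.

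Of the genes that brake growth or relay signals, *Rasgrf1* differed most. The exchange factor that it encodes activates Ras and is best known from neurons and from postnatal growth. Females ranged from 0.197 to 38.2 CPM with a median of 5.95, and males from 0.181 to 7.82 CPM with a median of 0.721. The log2FC was 3.02 ± 0.19 (adjusted p = 4.5e-21), and the female exceeded the male in 58 of 59 strains. The exception was PL/J, at 1.79 CPM in the female and 7.82 CPM in the male. Of the males whose Y-linked transcripts match the label, the PL/J male had the lowest Y-linked sum, 184 CPM against a median of 325 CPM. The males of NZB/BlNJ and BXD87/RwwJ were close to it, at 189 and 192 CPM. The lowest female value of *Rasgrf1* came from the library labelled BXD69/RwwJ female. Without the 3 libraries whose Y-linked transcripts go against the label, the 65 females started at 1.31 CPM, none lay below the male median of 0.700 CPM, and 42 of them still lay below the highest male. Ranges of a sex are given over all its libraries, including those of strains with 1 sex.

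Mammary epithelial markers moved with *Rasgrf1*. The level of *Rasgrf1* correlated with the mammary marker score in females (r = 0.45, Spearman's rho = 0.20, r = 0.26 without the 2 farthest libraries, n = 67, permutation test, adjusted p = 0.0022 over 162 relations) and in males (r = 0.57, rho = 0.46, r = 0.30 without the 2 farthest, n = 74, permutation test, adjusted p = 3.8e-05). In both sexes r was lower without the 2 farthest libraries. Of the libraries labelled male, the highest mammary sums were those of NZW/LacJ, whose Y-linked transcripts go against the label, at 482 CPM with *Rasgrf1* at 6.00 CPM, and of PL/J at 330 CPM with *Rasgrf1* at 7.82 CPM. Without the 3 libraries against their label, r with the mammary score was 0.26 in females (rho = 0.20) and 0.47 in males (rho = 0.44). In males *Rasgrf1* also correlated negatively with the adipocyte score (r = −0.47, rho = −0.38, r = −0.29 without the 2 farthest, permutation test, adjusted p = 0.00022) and positively with the lymphoid score (r = 0.46, rho = 0.49, r = 0.44 without the 2 farthest, permutation test, adjusted p = 6.9e-05), at −0.35 and 0.44 without the library labelled NZW/LacJ male. In females these r were 0.11 (adjusted p = 0.46, permutation test) and −0.02 (adjusted p = 0.88, permutation test). The part of these cell types in the sex difference of *Rasgrf1* was not tested.

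Other members moved with the mammary score too. In females 3 members were positively correlated with it, *Rasgrf1*, *Slc38a4* and *Mkrn3*, and in males 2 were, *Rasgrf1* and *Ddc*. For *Rasgrf1* in females the rank correlation did not pass (rho = 0.20, p = 0.11 unadjusted, permutation test). An r of the same sign and at least as far from 0 as in the weakest of them was reached by 13% of all genes in females and 4.18% in males. Negative correlations were called for 4 members in females, *Trappc9*, *Impact*, *Peg10* and *Ndn*, and for 2 in males, *Impact* and *Nap1l5*, against 12.7% and 11.7% of all genes. Those in males were weaker without the library labelled NZW/LacJ male, where r went from −0.38 to −0.25 for *Impact* and from −0.27 to −0.13 for *Nap1l5*, and without the 2 farthest libraries r was −0.22 and −0.06. The part of mammary epithelium in the sex differences of these members was not tested.

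The remaining signalling genes moved less. *Gnas* ranged from 412 to 1492 CPM in females (median 713) and from 545 to 1043 CPM in males (median 801). It was lower in females in 45 of 59 strains (log2FC −0.20 ± 0.05, adjusted p = 0.00014). *Inpp5f*, at medians of 30.2 and 32.1 CPM, was lower in females by the TMM-scaled test (log2FC −0.09 ± 0.03, adjusted p = 0.024), but its sign turned with library totals (0.022) and with TPM (0.015). *Peg12*, a relative of the GSK3-binding FRAT proteins, was higher in females in 44 strains (log2FC 0.41 ± 0.08, adjusted p = 2e-05), at medians of 1.14 and 0.884 CPM. The insulin receptor adaptor *Grb10* (log2FC 0.17, adjusted p = 0.059) and the cell cycle inhibitor *Cdkn1c* (log2FC 0.18, adjusted p = 0.07) did not pass the test, although both did with library totals and without the 2 strains that hold a library standing apart. *Phlda2*, a growth restrainer of the placenta, was untested for its low counts, with a median of 0.0964 CPM in females and 0 in males. The female exceeded the male in 51 strains and lay below it in 2, and it passed as higher when no filter was applied.

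Of the nuclear factors, *Zim1* and *Plagl1* were called in opposite directions. *Zim1*, a zinc finger gene next to *Peg3*, had 4.47 to 84.9 CPM in females (median 18.98) and 1.82 to 138.2 CPM in males (median 13.3). Females exceeded males in 40 strains (log2FC 0.71 ± 0.16, adjusted p = 0.00015), with ranges that overlapped widely. *Plagl1*, which regulates other imprinted genes, had 8.55 to 390 CPM in females (median 57.4) and 6.86 to 389 CPM in males (median 71.7). It was lower in females in 35 strains (log2FC −0.32 ± 0.13, adjusted p = 0.031), a call that was lost without the 2 strains that hold a library standing apart. *Peg3* itself (log2FC −0.19, adjusted p = 0.31), *Ndn*, which encodes the growth-restraining MAGE protein necdin (log2FC −0.20, adjusted p = 0.0503), and the nucleosome assembly relative *Nap1l5* (log2FC −0.31, adjusted p = 0.061) did not pass. *Ndn* and *Nap1l5* passed as lower without NZW/LacJ, the matched strain with a library against its label.

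Both genes of RNA processing were lower in females in the model of strain and sex. *Snrpn*, which encodes the spliceosomal protein SmN, had 3.27 to 45.6 CPM in females (median 21.3) and 7.41 to 45.5 CPM in males (median 26.99). The log2FC was −0.39 ± 0.10 (adjusted p = 0.00095), with lower values in females in 46 strains. *Snurf*, an upstream reading frame of the same transcript, had a log2FC of −0.50 ± 0.13 (adjusted p = 0.00075) at medians of 0.970 and 1.39 CPM. Because kallisto splits the reads of *Snurf* and *Snrpn* by probability, these are not separate measurements. With the adipocyte and skeletal muscle scores added, both turned sign, *Snrpn* to 0.20 (adjusted p = 0.0009 by edgeR) and *Snurf* to 0.083 (adjusted p = 0.57 by edgeR).

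Genes of protein turnover and trafficking were split. *Trappc9*, a subunit of the TRAPP vesicle tethering complex, had 20.6 to 66.4 CPM in females (median 36.4) and 25.9 to 69.1 CPM in males (median 43.2). It was lower in females in 50 strains (log2FC −0.35 ± 0.05, adjusted p = 5.4e-08), a call that was lost with the adipocyte and skeletal muscle scores added (−0.062, adjusted p = 0.085). *Copg2* was lower in 35 strains (log2FC −0.11 ± 0.05, adjusted p = 0.037), and this call too was lost without the strains that hold a library standing apart. *Mkrn3*, a RING finger gene known as a brake on puberty, was higher in females in 49 strains (log2FC 0.35 ± 0.06, adjusted p = 2.2e-06) at medians of 1.38 and 1.10 CPM. With the mammary score *Mkrn3* had r = 0.44 in females (rho = 0.48, r = 0.40 without the 2 farthest, permutation test, adjusted p = 0.028) and −0.03 in males. The deubiquitinase gene *Usp29* (log2FC −0.10, adjusted p = 0.44) and the SOCS box gene *Asb4* (log2FC 0.15, adjusted p = 0.20) did not pass. *Copg2* overlaps *Mest*, *Trappc9* hosts *Peg13* in an intron and *Nap1l5* lies inside *Herc3*. Whether the strand of the reads was used in quantification is not given in the sources used here, so reads of such neighbours may be shared.

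Among membrane and metabolic genes, *Slc38a4* and *Impact* stood out in size and in regularity. *Slc38a4*, a transporter of neutral amino acids, had 1.20 to 29.8 CPM in females (median 3.86) and 0.421 to 38.8 CPM in males (median 1.86). Females exceeded males in 51 strains (log2FC 1.12 ± 0.18, adjusted p = 6.3e-07), yet the highest value of all was that of the MA/MyJ male. Its r with the mammary score was 0.35 in females (rho = 0.33, r = 0.33 without the 2 farthest, permutation test, adjusted p = 0.011) and 0.25 in males (permutation test, adjusted p = 0.058). *Impact* had 40.3 to 92.3 CPM in females (median 62.1) and 45.7 to 105.4 CPM in males (median 79.5). It was lower in females in 55 of 59 strains (log2FC −0.32 ± 0.04, adjusted p = 2.4e-10), the largest number of strains for any member called lower. *Sgce* was lower in 38 strains (log2FC −0.31 ± 0.09, adjusted p = 0.0043) at medians of 58.3 and 65.6 CPM. *Ddc*, aromatic amino acid decarboxylase, was higher in 39 strains (log2FC 0.25 ± 0.10, adjusted p = 0.022), a call that limma-voom did not make. *Ppp1r9a*, an actin-binding neurabin (log2FC 0.05, adjusted p = 0.59), and *Peg10* (log2FC −0.01, adjusted p = 0.98) did not pass.

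**Figure D2:**
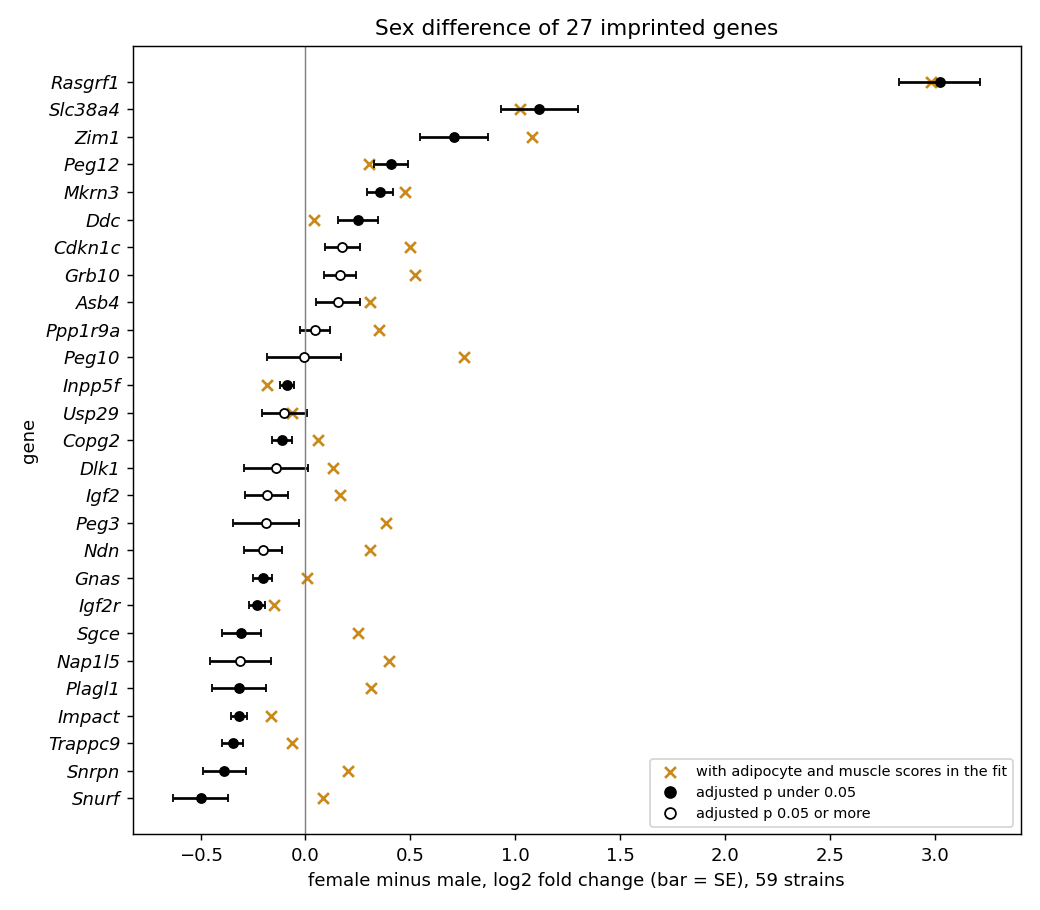
Sex difference (female minus male log2FC, points with SE) of the 27 members tested over 59 strains, with crosses for the same difference after adipocyte and skeletal muscle marker scores were added to the model. *Rasgrf1* lies at 3.02, and several crosses lie to the other side of 0, among them that of *Sgce* (−0.31 to 0.25), while *Inpp5f* turned to 0.022 under library totals and 0.015 under TPM.

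The sex difference was then compared between the 26 BXD strains and the 33 other strains with both sexes. By edgeR's interaction test no member differed between them at an adjusted p under 0.05, and 0 of 27 did so at an unadjusted p under 0.05 or with limma-voom. Of all 16765 genes tested, 0.0% were called. A difference between these groups of strains was not detectable for the members in these data.

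Strain was tested in the same fit, against the spread between the sexes of a strain after the common sex difference was removed. Of 27 members, 19 differed between strains (70.4%), against 71.2% of all genes tested. The 6 members with the largest F were *Dlk1* (F = 6.07, adjusted p = 8.5e-10), *Plagl1* (F = 4.26, adjusted p = 6.3e-07), *Asb4* (F = 3.69, adjusted p = 6.2e-06), *Cdkn1c* (F = 3.38, adjusted p = 2.3e-05), *Inpp5f* (F = 3.33, adjusted p = 2.8e-05) and *Mkrn3* (F = 3.01, adjusted p = 0.00011). The members not called were *Grb10*, *Ndn*, *Rasgrf1*, *Trappc9*, *Sgce*, *Gnas*, *Copg2* and *Peg12*.

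*Dlk1* varied between strains from below the detection floor to over 1 CPM in both sexes. Among strains with both sexes, high levels were found in SM/J, at 1.15 CPM in the female and 2.63 CPM in the male, and in CE/J, at 1.16 and 1.84 CPM. BALB/cJ, a parent of the CXB family, had 0.601 and 1.41 CPM. A/J stood at 0.0579 and 0.0318 CPM, under the floor of 3 counts in both sexes.

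The parents of the BXD family differed in *Dlk1* as well. C57BL/6J had 0.445 CPM in the female (13 counts) and 0.518 CPM in the male (13.5 counts), whereas DBA/2J had 0 CPM in the female, where 3 counts would be 0.119 CPM, and 0.111 CPM in the male (4 counts). Against that floor the C57BL/6J female was higher, but the counts are few and each parent has 1 library per sex. In the 26 BXD strains with both sexes, mean *Dlk1* ran from below the floor of 3 counts in BXD44/RwwJ, with 2.5 counts over both libraries, to 1.21 CPM in BXD86/RwwJ. The largest gap between neighbouring strains, 0.76 on the log2 scale, separated 15 strains of up to 0.155 CPM (BXD66/RwwJ) from 11 strains of at least 0.310 CPM (BXD74/RwwJ). This gap was found after the values were seen and was not tested. In 5 libraries, 1 female and 4 males, *Dlk1* was at 0 counts after rounding.

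Levels of *Dlk1* in the sexes followed each other across strains. Pearson's r between the female and the male of a strain was 0.80 over 59 strains (Spearman's rho = 0.78, r = 0.80 without the 2 farthest strains, permutation test, adjusted p = 0.000103 over 31 relations). The correlation was 0.89 within the 26 BXD strains and 0.68 within the 33 others. Of 31 members, 15 passed this test, of which 14 belong to the 27 tested for sex (51.9%). An r at least as high as in the weakest of those 14 was reached by 48.3% of all genes, and the median r was 0.31 over the 27 members and 0.30 over all genes.

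*Plagl1* was lowest in SJL/J (8.55 CPM in the female, 6.86 in the male) and highest in BXD43/RwwJ (390 and 389 CPM). The female and male values of each of these strains lay close together, and over all 59 strains r was 0.59 (rho = 0.46, r = 0.46 without the 2 farthest strains). It was 0.67 within the BXD strains and 0.32 in the others.

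*Cdkn1c*, at 43.5 and 48.5 CPM in SM/J and 34.2 and 43.8 CPM in MA/MyJ, stood at 9.54 and 3.02 CPM in I/LnJ. *Mkrn3* and *Inpp5f* varied within narrower limits. *Mkrn3* was highest in the I/LnJ female (2.60 CPM against 1.13 in the male), and *Inpp5f* was lowest in the BXD60/RwwJ female (19.1 CPM against 23.7 in the male). The female and male values were correlated at r = 0.52 for *Cdkn1c* (rho = 0.49), 0.54 for *Mkrn3* (rho = 0.51) and 0.54 for *Inpp5f* (rho = 0.53).

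*Asb4*, the substrate adaptor of a ubiquitin ligase, showed strains in which the sexes disagreed. FVB/NJ was low in both, at 0.319 CPM in the female and 0.177 CPM in the male. BXD79/RwwJ, in contrast, had 4.39 CPM in the female, the library with the highest skeletal muscle sum, and 0.420 in the male, and the part of muscle in that difference was not tested. The correlation between the sexes was 0.52 over all strains, 0.29 within the BXD strains and 0.67 in the others. At the other extreme, the values of *Rasgrf1* (r = −0.06) and *Copg2* (r = 0.02) in the female of a strain bore no linear relation to those in the male. The high values of *Copg2* came from single libraries, BXA24/PgnJ male at 452 CPM, BXD27/TyJ female at 228 CPM and PL/J male at 193 CPM, of which the first 2 are among the 3 shallowest libraries (11747132 and 12057790 counts).

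**Figure D3:**
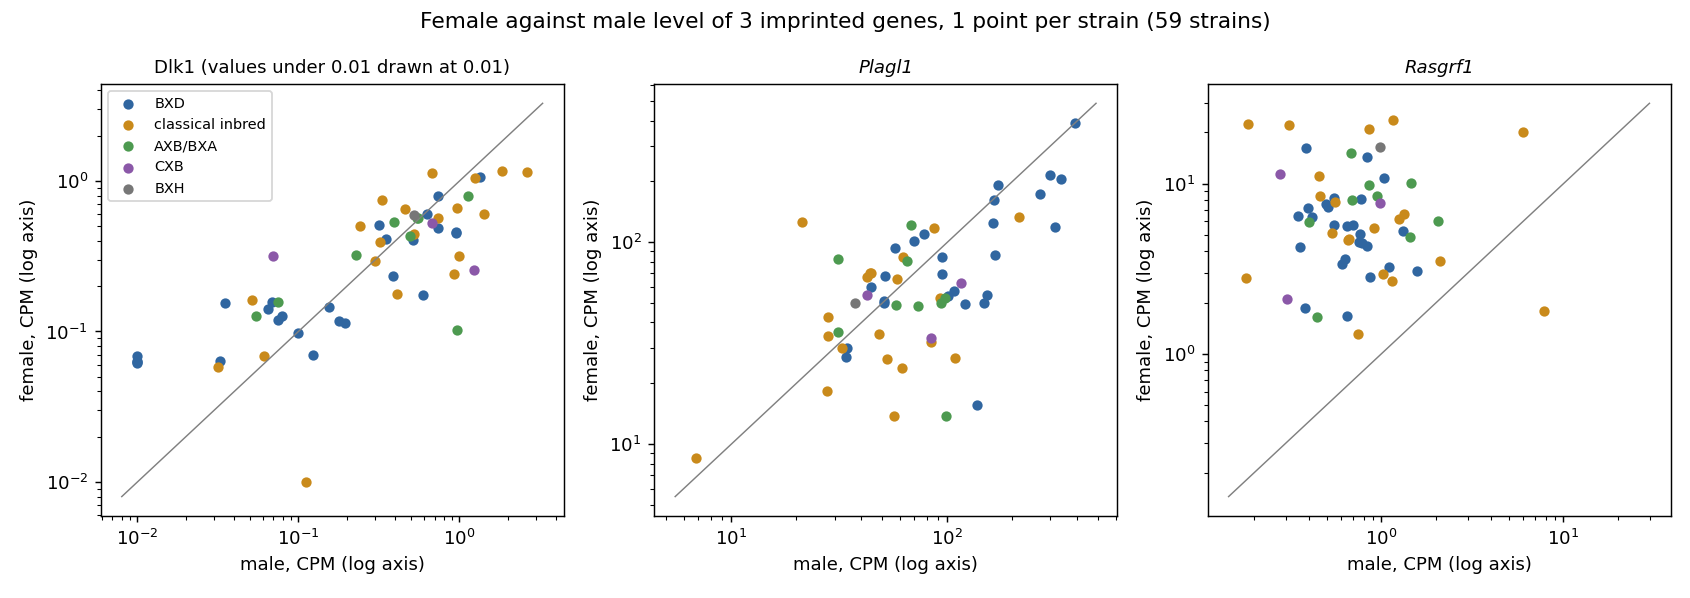
Level of *Dlk1*, *Plagl1* and *Rasgrf1* (CPM, log axes) in the female against the male of 59 strains, coloured by family. *Dlk1* and *Plagl1* follow each other between the sexes (r = 0.80 and 0.59), and *Rasgrf1* does not (r = −0.06).

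Families of strains were compared within each sex. In males 3 of 26 members differed between families (11.5%, against 9.09% of 14976 genes tested), and in females 1 of 26 did (3.85%, against 4.39% of 15476). *Plagl1* in males had a median of 111.2 CPM in BXD strains (34.1 to 389, n = 34) and 56.5 CPM in classical inbred strains (6.86 to 214, n = 23), with an adjusted p of 0.0062 by edgeR. *Asb4* in males was highest in AXB/BXA strains, at a median of 1.26 CPM, against 0.747 in BXD and 0.554 in classical inbred strains (adjusted p = 0.011 by edgeR). *Inpp5f* in males had a median of 28.3 CPM in BXD and 36.6 CPM in classical inbred strains (adjusted p = 0.021 by edgeR).

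In females the call was *Usp29*, at a median of 1.59 CPM in BXD and 0.971 CPM in classical inbred strains (adjusted p = 0.0025 by edgeR). The call was lost in each of the 3 fits without the library labelled BXD34/TyJ female. Leaving it out with the other libraries against their label, with those standing apart or with the 3 shallowest libraries gave an adjusted p of 0.061, 0.094 and 0.088, and the female count stayed at 1 because *Asb4* passed instead (adjusted p = 0.030, 0.042 and 0.034). Over all alternatives the adjusted p of *Usp29* in females ran from 0.0059 to 0.79. *Dlk1* was too low for the filter in the fits by family and was not tested there.

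The members were next related to each other within each sex. Of the 351 pairs of 27 members, 162 were correlated in females and 153 in males (Pearson's r of log2 CPM, permutation test, adjusted p under 0.05 over the 351 pairs). An r at least as far from 0 as in the weakest of these pairs, 0.284 in females and 0.267 in males, was reached by 43.4% and 40.4% of all 140524230 pairs of genes, against 46.2% and 43.6% of the members' pairs. The calls were mostly positive, whereas among all pairs of genes both signs were about as frequent. Of the members' pairs, 41.3% were positive calls and 4.84% negative calls in females, against 21.8% and 21.6% among all pairs of genes. In males the shares were 35% and 8.55%, against 20.1% and 20.2%. The number of negative calls depended on the measure and on a few libraries. With all libraries, Spearman's rho gave 33 negative calls in females and 29 in males, and log2(TPM + 1) gave 15 and 12. Without the libraries labelled BXD34/TyJ female and BXD69/RwwJ female, 191 pairs were called in females, of which 33 were negative, or 9.40% of the 351 pairs. Without those standing apart 33 of 168 calls were negative, and without the shallow ones 34 of 192. Without the library labelled NZW/LacJ male, 33.6% of the 351 pairs were called in males and the negative calls numbered 18, or 5.13% of the pairs. Shares over all pairs of genes are given for Pearson's r with all libraries only. The counts under these alternatives have no such share beside them. With all libraries, in both sexes 99 pairs were called, and 98 had the same sign. The exception was *Dlk1* with *Usp29* (r = 0.31 in females and −0.27 in males). Its r in females was 0.10 (adjusted p = 0.55, permutation test) without the libraries against their label, and 0 pairs called in both sexes then had opposite signs.

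Marker genes moved with this pattern. Adipocyte scores were positively correlated with 16 of the 27 members in females and 17 in males, and lymphoid scores negatively with 17 and 17. An r of the same sign and at least as far from 0 as in the weakest of these members was reached by 24.9% of all genes in females and 31.6% in males for the adipocyte score, and by 33.9% and 34.9% for the lymphoid score. *Sgce* correlated with the adipocyte score at r = 0.91 in females and 0.82 in males, *Ndn* at 0.91 and 0.75, and *Snrpn* at 0.86 and 0.83. When the adipocyte and lymphoid scores were regressed out of each gene, an alternative chosen after the data were seen, 29 pairs were called in females and 33 in males (8.26% and 9.40%). With the same scores regressed out, an r at least as far from 0 as in the weakest of these pairs was reached by 23.1% and 14.1% of all pairs of genes.

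**Figure D4:**
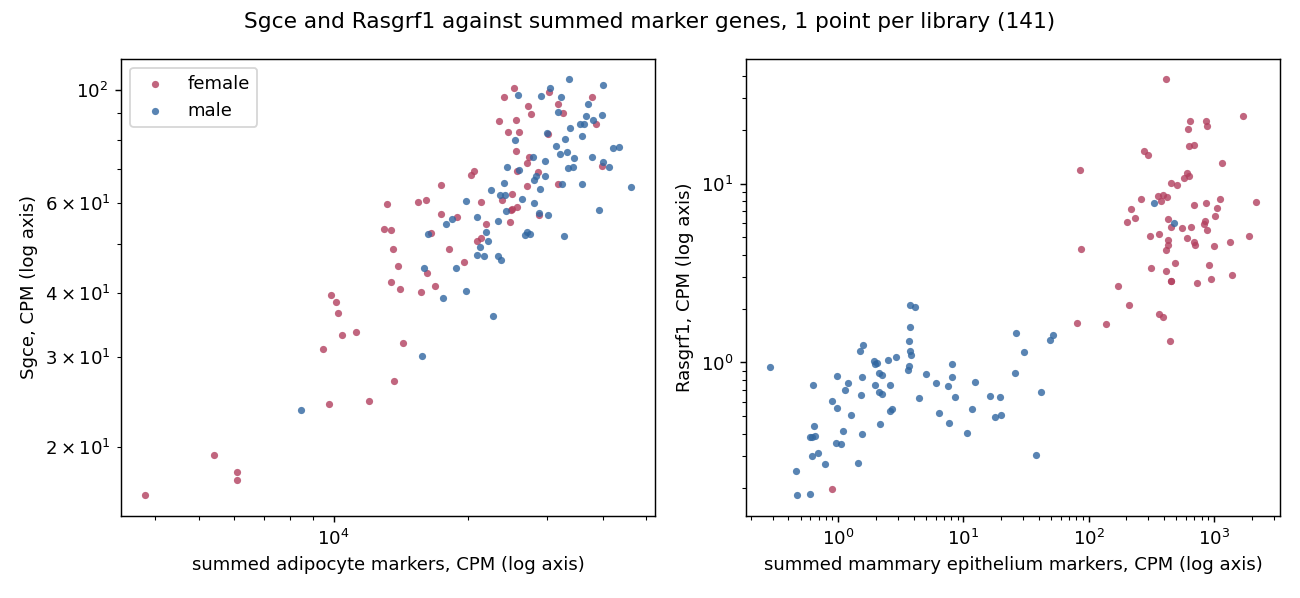
*Sgce* against the summed adipocyte markers and *Rasgrf1* against the summed mammary epithelial markers in all libraries (CPM, log axes), by sex. *Sgce* rises with the adipocyte sum in both sexes (r = 0.91 and 0.82 with the score), and most males sit at low mammary sums and low *Rasgrf1*.

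The pairs with the largest r in females that also passed in males joined genes of different chromosomes as well as neighbours. *Ndn* and *Sgce* correlated at r = 0.92 in females and 0.73 in males. *Snrpn* with *Sgce* had r = 0.85 and 0.77, *Ndn* with *Snrpn* 0.84 and 0.73, *Snrpn* with *Snurf* 0.82 and 0.65, *Snrpn* with *Gnas* 0.82 and 0.64, and *Snrpn* with *Trappc9* 0.82 and 0.71. Each had a permutation p of 1e-05, the smallest that 100000 resamples can give, and an adjusted p of 4.7e-05 in females and 0.0001 in males. With the scores regressed out, r was 0.49 and 0.20 for *Ndn* with *Sgce* and 0.62 and 0.02 for *Snrpn* with *Gnas*, whereas *Snrpn* with *Snurf*, which share a transcript, kept 0.61 and 0.59.

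Among the 351 pairs, 20 join members of the same imprinted domain and 331 members of different domains. Within domains 9 of the 20 pairs were called in females and 12 in males, which is 9 of all 162 calls in females and 12 of all 153 in males. The median r was 0.21 and 0.32 within domains and 0.20 and 0.13 between them. In females the largest r within a domain was that of *Ndn* with *Snrpn* (0.84), and in males that of *Peg3* with *Zim1*, whose starts lie on the same strand of chromosome 7 in the windows shown above. *Peg3* and *Zim1* had r = 0.80 in females (rho = 0.80) and 0.91 in males (rho = 0.93), 0.83 and 0.90 within BXD strains, and 0.71 and 0.91 with the scores regressed out.

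Single strains show this relation. In the AKR/J male *Peg3* (920 CPM) and *Zim1* (138.2 CPM) were both the highest of all libraries, and *Usp29* (6.95 CPM) was the second highest. In the CXB11/HiAJ male *Peg3* was at its lowest (14.3 CPM) with *Zim1* at 3.08 CPM, while the female of that strain had 55.7 CPM of *Peg3* and 14.5 CPM of *Zim1*. In BXD43/RwwJ the female stood at 700 CPM for *Peg3* and 84.9 for *Zim1*, and the male at 213 and 11.9 CPM. BXD79/RwwJ went the other way, with 341 CPM of *Peg3* and 38.7 CPM of *Zim1* in the female and 727 and 64.8 CPM in the male, where the female is again the library with the highest skeletal muscle sum. In each of these 3 strains with both sexes *Peg3* and *Zim1* differed in the same direction between the sexes.

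*Usp29*, whose window overlaps that of *Peg3* on the opposite strand, followed the pair less closely. Its r was 0.46 in females and 0.48 in males with *Zim1*, and 0.24 (adjusted p = 0.089, permutation test) and 0.48 with *Peg3*. Without the libraries labelled BXD34/TyJ female and BXD69/RwwJ female its r with *Peg3* in females was 0.46. *Peg10* and *Sgce*, the other pair of opposed starts, had r = 0.77 in females and 0.53 in males.

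After the scores were regressed out, 10 pairs passed in both sexes (2.85%, against 6.04% of all pairs of genes at the same limits of r), namely *Peg3* with *Zim1*, *Peg3* with *Plagl1*, *Zim1* with *Plagl1*, *Zim1* with *Grb10*, *Usp29* with *Zim1*, *Igf2* with *Cdkn1c*, *Igf2* with *Sgce*, *Plagl1* with *Sgce*, *Cdkn1c* with *Gnas*, and *Snrpn* with *Snurf*. Of these, 6 involve *Peg3*, *Zim1* or *Plagl1*. Negative pairs were fewer than positive ones in both sexes. *Rasgrf1* took part in 15 of the 30 negative pairs in males, and in 8 of the 18 that were called without the library labelled NZW/LacJ male. *Mkrn3* took part in 6 of the 17 in females, and in 3 of the 33 called without the libraries labelled BXD34/TyJ female and BXD69/RwwJ female. *Inpp5f* took part in 5 of the 17 and 14 of the 33, and in males in 8 of the 30 and 7 of the 18. The lowest r in females, −0.73 for *Mkrn3* with *Inpp5f*, was −0.39 without the libraries labelled BXD34/TyJ female and BXD69/RwwJ female, and −0.13 in males.

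**Figure D5:**
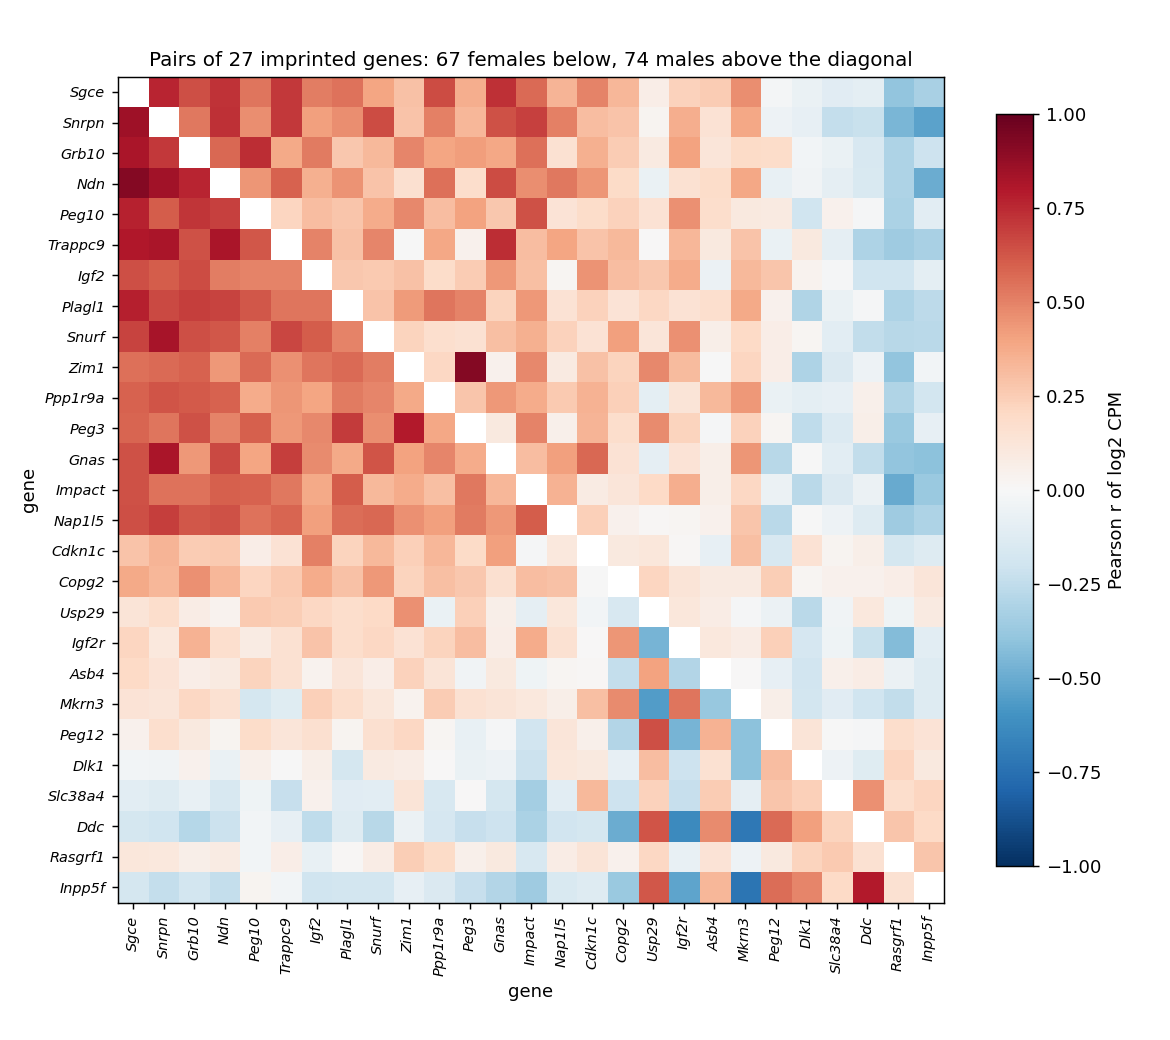
Pearson's r of log2 CPM between the 27 members tested, females below and males above the diagonal. Positive r prevails in both sexes, with 17 negative pairs of 162 called in females and 30 of 153 in males.

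A further list of 36 imprinted genes outside the 38 gives the surroundings. Of these, 34 have a row and 28 were tested, with 16 lower and 3 higher in females and 16 different between strains. Among all 16765 genes tested, 29.8% were lower, 28.4% were higher and 71.2% differed between strains. The largest decreases were those of *Mest*, a marker of fat mass expansion (368 CPM in females and 699 CPM in males on average, log2FC −1.49 ± 0.33, adjusted p = 8.2e-05 by edgeR, lower in 47 of 59 strains), and of *Nnat*, which encodes neuronatin (546 and 1229 CPM, log2FC −1.36 ± 0.18, adjusted p = 4.1e-09, lower in 51 strains). The largest increases were those of *Begain*, a gene near *Dlk1* (2.91 and 1.42 CPM, log2FC 1.08 ± 0.12, adjusted p = 1.3e-11, higher in 52 strains), and of the transporter gene *Slc22a18* (3.49 and 2.79 CPM, log2FC 0.36 ± 0.09, adjusted p = 0.0008, higher in 46 strains).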

How the data were processed

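RNA from subcutaneous adipose tissue was sequenced by the authors as stranded, paired-end libraries. The authors quantified transcripts with kallisto 0.46.1, as their processing notes name it, against Ensembl release 97 on GRCm38 and used tximport to obtain gene values. The deposited tables hold estimated counts, not normalized and with 30.2% of values not whole, and TPM, scaled by the authors for length and depth. Symbols came from GENCODE, which matches Ensembl release 96, for 35856 of 36558 genes.

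Estimated counts were rounded, filtered by filterByExpr and scaled by TMM. The model ~ Strain + Sex was fitted to 118 libraries of 59 strains with edgeR 4.0.16 in R 4.3.3 (quasi-likelihood test, Benjamini-Hochberg over all genes, threshold 0.05), following the study's model. Strain pairs the sexes by label. Families were fitted in each sex. Pairs of genes were correlated on log2 CPM (prior count 2) with two-sided permutation tests of 100000 resamples in Python 3.11.15 with scipy 1.17.1. Floors of 3 counts and p-values cover counting error and the spread between libraries only.

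The members and the lists of other imprinted genes and marker genes were chosen with earlier results of these data known. Full values are given for members called for sex or family, for the 6 with the largest strain F, for the 6 pairs with the largest r in females that pass in males, and for 2 other imprinted genes in each direction. Strains or libraries beyond these were picked after their values were seen. The steps were tested on simulated data. Alternatives used DESeq2 1.42.0, limma 3.58.1 (voom, and log2 TPM with pseudocounts 1 and 0.1), RLE factors, library totals, no low filter or at least 10 counts in every library, no strain term, marker scores, Spearman's rho, BXD strains alone, and fits without doubtful libraries. Fits without libraries standing apart (median correlation under 0.83) or without the 3 shallowest libraries, and pairs with marker scores regressed out, were added after the data were seen.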

Additional observations from a re-analysis of the deposited data

Results flagged for a closer look

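In 5 of the 27 members tested, the AXB12/PgnJ female lay far below the other 8 AXB/BXA females by Dixon's test for a single outlying sample. *Grb10* was at 25.3 CPM in this library against 51.2 to 94.8 CPM in the others, and *Ndn* at 4.99 CPM against 17.7 to 37.5 CPM. *Snrpn* was at 3.27 CPM against 12.7 to 29.9 CPM, *Sgce* at 16.05 CPM against 43.9 to 99.3 CPM, and *Ppp1r9a* at 11.2 CPM against 24.1 to 47.4 CPM. Chance gives such an outlier in about 1 of 20 groups, and the 5 genes were read from the same library, so they are not separate events. This library also had the lowest summed adipocyte markers of the females (3796 CPM) and the highest summed lymphoid markers (1385 CPM), and its median correlation with the other libraries was 0.764. The part of these cell types in the 5 values was not tested.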

How the results depend on the processing

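Of 318 sex differences of single members under alternative settings, 256 kept direction and side of the threshold, 17 lost the call, 22 gained it and 23 turned sign, and 7 of 27 genes kept both throughout, namely *Igf2r*, *Impact*, *Rasgrf1*, *Slc38a4*, *Zim1*, *Mkrn3* and *Peg12*, in the settings that tested them. With adipocyte and skeletal muscle scores added, the members lower in females numbered 3 and those higher 15 (each direction 24.6% of all genes), the sign turned for *Igf2* (0.16), *Dlk1* (0.13), *Peg3* (0.38), *Plagl1* (0.31), *Ndn* (0.31), *Snrpn* (0.20), *Snurf* (0.083), *Peg10* (0.76), *Sgce* (0.25), *Gnas* (0.0085), *Copg2* (0.058) and *Nap1l5* (0.40), and members called between families numbered 2 in females and 5 in males (7.69% and 19.2%, against 6.27% and 16.1% of all genes). Library totals gave 10 higher (44.2% of all genes) and turned *Usp29* to 0.0085 and *Inpp5f* to 0.022, as did both TPM settings for *Inpp5f* (0.015 each). *Peg10*, at −0.01 and not called, also turned with at least 10 counts in every library (0.013), library totals (0.10), TPM with pseudocounts 0.1 (0.067) and 1 (0.083), limma-voom (0.11), no replicate block (0.31) and without strains with a library standing apart (0.050). The families of females gave 2 members for BXD against classical inbred strains (7.05% of all genes), and 0 with limma-voom (1.93%) and with limma on log2(TPM + 1) (0.756%). Correlated pairs numbered 91 in females and 53 in males within BXD strains alone, and 29 and 33 with scores regressed out. These sets hold fewer strains or less variance, and beyond that the cause was not tested. For BXD strains alone no share over all pairs of genes is given.

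The pairing of the sexes by strain is part of the design. With no replicate block, 8 members were lower and 5 higher (29.6% and 18.5%, against 24.5% and 24.4% of all genes), with *Inpp5f*, *Plagl1* and *Ddc* lost. Leaving out single replicates was not done, since the groups of females and males exceed 5 libraries. The families BXH (2 females and 3 males) and CXB (3 and 3) are smaller, and it was not done there either. Depth limits *Dlk1*, *Phlda2*, *Magel2*, *Zdbf2* and *Rtl1*, which many libraries hold at or under 3 counts. The interaction of sex with BXD membership had 0 calls in all settings run.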
